A study of Arabidopsis thaliana with 12 samples.

Results

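The 59 genes described here are Arabidopsis genes whose array signal was moderately higher in proline-treated plants than in water-treated plants. The 12 arrays measured total RNA from Arabidopsis thaliana plants of the ecotype Wassilevskija, all wild type, of which 6 samples had received 100 mM proline for 3 h and 6 had received water. The labels give the time for the proline samples only, and they state neither the plant part nor the age or growth conditions. The values are relative intensities on a linear scale with a ceiling of 100. A member is a feature, meaning a spot or probe of the array, that the platform annotation assigns to exactly 1 gene. Its mean over the 6 water samples had to lie from 0.1 to below 2, its proline mean had to be 1.5 to 4 times its water mean, and its lowest proline value had to exceed its highest water value. These limits were met by 66 of 692 features with 1 gene (9.54%), against 235 of 2747 features with several genes or none given (8.55%). A further 7 of the 66 were set aside by name, which left the 59 members of 3439 features in all. Their water means lay between the 31.2 and the 93.7 percentile of all features, with a median at the 60.2 percentile.

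The members were chosen by these proline and water values themselves, so their difference between the groups is described without a test. Groups that do not overlap, with proline above water, were found for 500 of all 3439 features (14.5%) and for 114 of the 692 with 1 gene (16.5%). For those with 1 gene and a water mean within the limits, the count was 94 of 437 (21.5%). The absence of overlap among members is set by the rule and carries no further meaning. Over the whole array, limma with Benjamini-Hochberg adjustment on quantile-normalized log2 values called 523 of 2861 tested features higher after proline (18.3%) and 740 lower (25.9%). The balance turned with the scaling, with 702 higher and 483 lower as deposited and 598 higher and 605 lower after cyclic loess.

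Proline is made mainly from glutamate in the cytosol and plastid and is broken down to glutamate in the mitochondrion. Plants accumulate it under drought and salt, where it serves as a compatible solute, and outside supply in excess is harmful to growth. Supplied proline is known to induce proline dehydrogenase, the first enzyme of its breakdown, and bZIP transcription factors of groups S1 and C are known to act on that gene. Of 12 genes of proline metabolism and transport and 9 such bZIP genes, 0 and 0 were assigned to a feature of this array, so the members cannot be set beside them. In total RNA from plants, more cells of a type and more RNA per cell cannot be told apart.

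**Figure D1:**
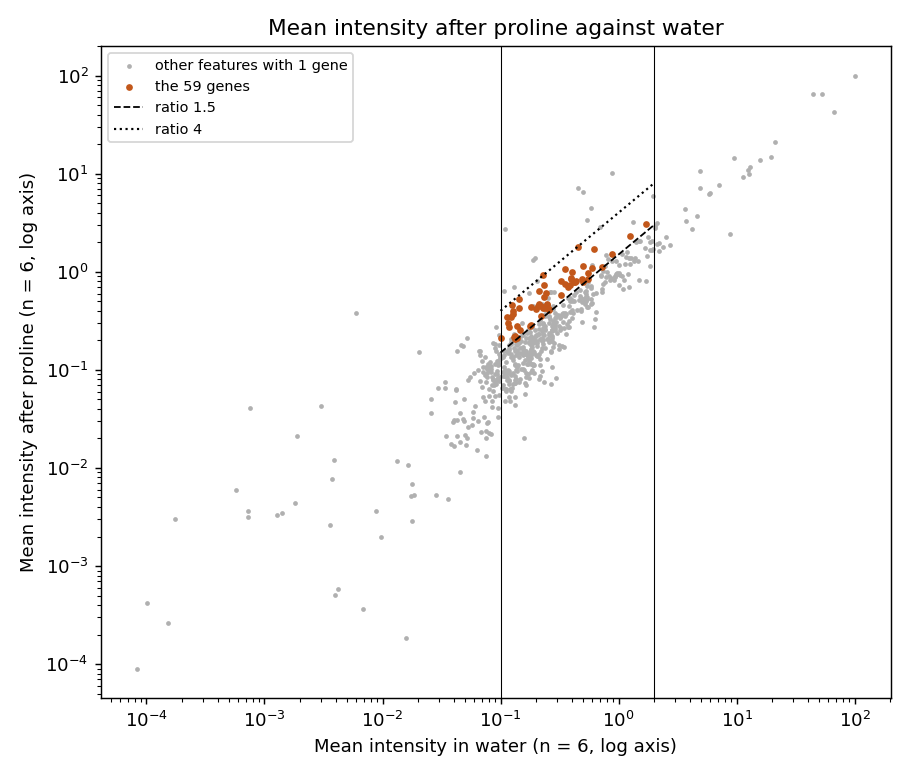
Mean deposited intensity after proline (vertical, log axis, n = 6) against the mean in water (horizontal, log axis, n = 6) for each feature with 1 gene. Coloured points are the 59 genes, which lie between the dashed line (ratio 1.5) and the dotted line (ratio 4) and between the vertical lines at 0.1 and 2, and 80 features with a mean of 0 in a group are not drawn.

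The ratio of the proline mean to the water mean ran from 1.53 to 3.995 over the members, with a median of 2.02. It was below 2 for 29 genes, from 2 to below 3 for 21 and at least 3 for 9. At the limits on the ratio, members and the nearest features outside had nearly the same ratios. Inside, AT4G30680 had a ratio of 1.53 and AT4G17650 one of 3.995, while AT4G21820 at 1.499 and AT3G04210 at 4.02 were outside. At the limits on the water mean, AT2G32470 had one of 0.102 and AT4G32060 one of 1.72. The nearest features outside that met the other limits were AT5G34870 at 0.0969 and, farther off, AT1G73120 at 4.89. Among features with 1 gene and a water mean within the limits, 12 more had a ratio of 1.5 to 4 but overlapping groups. Groups were apart but the ratio was above 4 for 12 and below 1.5 for 16.

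The distance between the groups varied more among the members than their ratios show. The lowest proline value was between 1.0007 and 3.56 times the highest water value, with a median of 1.48. It was at least 1.5 times as high in 27 genes and less than 1.1 times as high in 6. These 6 were AT1G20130, AT1G78790, AT4G32060, AT5G41960, AT3G16310 and AT5G19750. Within single replicate numbers, the proline value was between 1.12 and 6.95 times the water value. No member had a value of 0 on any array.

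**Figure D2:**
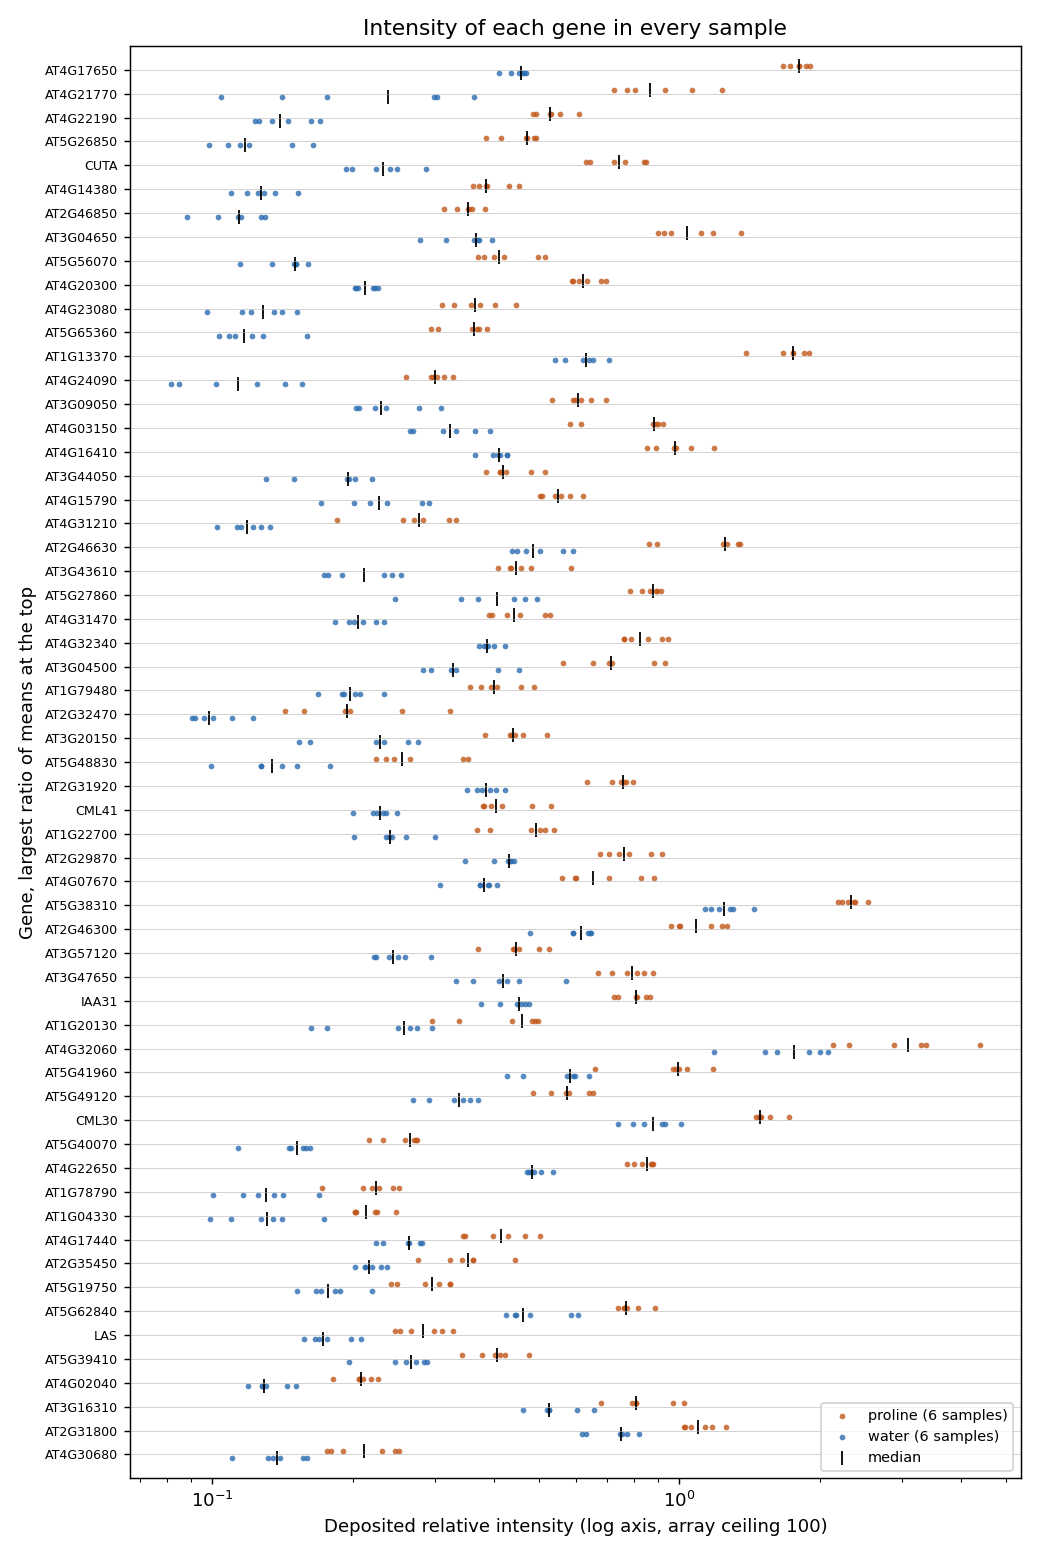
Deposited intensity (horizontal, log axis) of each of the 59 genes in the 6 proline samples (upper points of each row) and the 6 water samples (lower points), with the median of each group as a black tick. Genes are in order of the ratio of means, with AT4G17650 (3.995) at the top and AT4G30680 (1.53) at the bottom.

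The platform annotation gives a symbol for 5 of the 59 members and a locus code for the others. Protein families named below for locus codes are background knowledge and not from the array's annotation. They were used to group 31 members for description after their values had been seen, so the groups are no sign of a theme. The other 28 members are given no role.

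Histones and DNA-associated proteins made up 4 of the members. AT5G65360 encodes histone H3.1, the histone H3 form laid down during DNA replication. It ran from 0.294 to 0.388 (median 0.364) in proline samples, against 0.103 to 0.159 (median 0.117) in water samples. AT1G13370, another locus of the histone H3 family, ran from 1.39 to 1.89 (median 1.75) in proline samples, against 0.540 to 0.707 (median 0.631) in water samples. The ratios of means were 2.85 for AT5G65360 and 2.76 for AT1G13370, and the lowest proline sample was 1.85 and 1.97 times the highest water sample. Another H3.1 locus with a feature of its own, AT1G09200, is no member and was lower after proline; it was picked out after its values were seen. AT1G09200 ran from 0.0869 to 0.147 (median 0.107) in proline samples, against 0.149 to 0.210 (median 0.185) in water samples, with a ratio of means of 0.636. Its log2 difference lay between -0.86 and -0.64 under the 4 scalings, while those of AT5G65360 and AT1G13370 were above 0 under each. Histone H3 genes are a family of near-identical copies, the probe sequences were not used here, and signal from other copies cannot be told apart. AT4G31210, of the type I DNA topoisomerase family, which relieves torsion in DNA, averaged 0.275 ± 0.0527 after proline and 0.119 ± 0.0109 in water (SD, n = 6 each). AT1G78790 encodes MHF2, a histone-fold protein known in Arabidopsis to limit meiotic crossovers. Its values ran from 0.171 to 0.251 (median 0.224) in proline samples, against 0.1003 to 0.169 (median 0.130) in water samples, so the groups nearly touched. After quantile normalization the groups of AT1G78790 overlapped, and those of the other 3 members did not.

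The microtubule and nuclear pore group also had 4 members. The kinesins AT3G44050 and AT3G20150 belong to the motor proteins that move along microtubules. AT3G44050 ran from 0.384 to 0.516 (median 0.419) in proline samples, against 0.130 to 0.220 (median 0.195) in water samples. AT3G20150 ran from 0.384 to 0.521 (median 0.441) in proline samples, against 0.153 to 0.275 (median 0.228) in water samples. Both kinesins were lowest among water samples in replicate 3 or 4, and their ratios of means were 2.41 and 2.05. AT3G43610, of the family of gamma-tubulin complex proteins that nucleate microtubules, ran from 0.408 to 0.585 in proline samples, against 0.173 to 0.253 in water samples. AT3G16310, a nucleoporin-family locus, averaged 0.846 ± 0.126 after proline and 0.549 ± 0.0697 in water (SD, n = 6 each). With quantile normalization the AT3G16310 groups overlapped and the difference was 0.26 ± 0.11 SE on the log2 scale, the smallest normalized difference among the 59.

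Calcium-binding proteins accounted for 3 members. CML30 and CML41 are calmodulin-like proteins, which bind calcium through EF hands and act as calcium sensors. CML30 ran from 1.46 to 1.72 (median 1.49) in proline samples, against 0.737 to 1.01 (median 0.879) in water samples. CML41 ran from 0.379 to 0.531 (median 0.406) in proline samples, against 0.1997 to 0.249 (median 0.228) in water samples. Their ratios of means were 1.76 and 1.90, and in both the groups stayed apart after quantile normalization. AT4G32060, an EF-hand protein of the mitochondrial calcium uptake machinery, was more scattered. Its values ran from 2.13 to 4.40 (median 3.08) in proline samples, against 1.19 to 2.08 (median 1.76) in water samples. The lowest proline value of AT4G32060 was 1.02 times its highest water value, and the groups overlapped after normalization.

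Transcriptional regulators gave 3 members with ratios of means from 1.58 to 1.82. IAA31 is an Aux/IAA protein, of the family that represses auxin-responsive genes until auxin triggers its breakdown. It ran from 0.725 to 0.864 (median 0.809) in proline samples, against 0.375 to 0.477 (median 0.453) in water samples. LAS, or Lateral Suppressor, is a GRAS-family regulator needed to form axillary meristems. LAS ran from 0.246 to 0.328 (median 0.282) in proline samples, against 0.157 to 0.208 (median 0.173) in water samples. AT5G40070, of the MADS-box family, averaged 0.254 ± 0.0239 after proline and 0.147 ± 0.0177 in water (SD, n = 6 each). After normalization the groups of LAS overlapped, while those of IAA31 and AT5G40070 did not.

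The 3 protein kinase loci covered much of the range of ratios. AT2G46850 ran from 0.313 to 0.384 (median 0.353) in proline samples, against 0.0885 to 0.130 (median 0.114) in water samples, a ratio of means of 3.10. AT3G57120 had a ratio of 1.84, from means of 0.455 ± 0.0537 after proline and 0.248 ± 0.0264 in water (SD, n = 6 each). AT2G31800, of the integrin-linked kinase family, had a ratio of 1.54, from means of 1.11 ± 0.0936 after proline and 0.723 ± 0.0805 in water. All 3 kept their groups apart after quantile normalization, and for AT2G31800 the normalized ratio was 1.22.

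RNA-related loci included the member with the widest spread among water samples. AT4G21770, of the pseudouridine synthase family that modifies uridines in RNA, had proline values of 0.802, 0.724, 0.930, 0.770, 1.07 and 1.235 in replicates 1 to 6. Its water values in replicates 1 to 6 were 0.176, 0.104, 0.363, 0.141, 0.303 and 0.299. The coefficient of variation (SD over mean) of AT4G21770 was 21.5% after proline and 45.2% in water, and the proline value was 2.56 to 6.95 times the water value of the same number. Its log2 difference after normalization was 1.85 ± 0.32 SE, the largest among the 59 and also the one with the largest error. AT3G04500, with an RNA recognition motif, averaged 0.743 ± 0.139 after proline and 0.349 ± 0.0676 in water (SD, n = 6 each). AT4G30680, of the family of eIF4G-related translation proteins, ran from 0.176 to 0.250 in proline samples, against 0.110 to 0.159 in water samples.

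Plastid proteins gave 3 members. CUTA is a copper-binding plastid protein named after a bacterial copper tolerance gene. It ran from 0.630 to 0.846 (median 0.743) in proline samples, against 0.193 to 0.286 (median 0.232) in water samples. The ratio of means for CUTA was 3.20, and the log2 difference after normalization was 1.38 ± 0.15 SE. AT1G22700, a tetratricopeptide protein of photosystem I assembly, averaged 0.467 ± 0.0695 after proline and 0.246 ± 0.0323 in water (SD, n = 6 each). AT3G47650, a plastid zinc-finger chaperone that helps to fold and assemble Rubisco, averaged 0.781 ± 0.0773 after proline and 0.426 ± 0.0837 in water (SD, n = 6 each). The groups of AT1G22700 and of AT3G47650 overlapped after normalization, and those of CUTA did not.

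Among 5 enzyme and lipid-binding loci were the member with the highest ratio and the member with the narrowest gap. AT4G17650, of the polyketide cyclase and lipid transport family, which includes coenzyme Q-binding proteins, had proline values of 1.67, 1.72, 1.80, 1.81, 1.90 and 1.87 in replicates 1 to 6. Its water values in replicates 1 to 6 were 0.411, 0.465, 0.469, 0.436, 0.460 and 0.454. Both groups were tight, with coefficients of variation of 4.83% after proline and 4.91% in water, and the lowest proline value was 3.56 times the highest water value. AT1G20130, of the GDSL lipase family, ran from 0.296 to 0.497 (median 0.461) in proline samples, against 0.162 to 0.296 (median 0.257) in water samples. The extremes of its groups met, at a ratio of 1.0007. AT3G04650, of an oxidoreductase family that binds FAD, had a ratio of means of 3.06. AT5G39410, of the saccharopine dehydrogenase family, had one of 1.57, and AT5G62840, of the phosphoglycerate mutase family, one of 1.59. AT1G20130, AT5G39410 and AT5G62840 overlapped after normalization.

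Of 3 membrane and secreted proteins, AT4G31470, a locus of the CAP family that includes pathogenesis-related protein 1, averaged 0.452 ± 0.0583 after proline and 0.208 ± 0.0184 in water (SD, n = 6 each). AT2G29870, an aquaporin-like locus, averaged 0.782 ± 0.0944 after proline and 0.415 ± 0.0362 in water. AT5G19750, of the Mpv17 and PMP22 family of organelle membrane proteins, averaged 0.288 ± 0.0363 after proline and 0.180 ± 0.0233 in water. Their ratios of means ran from 1.60 to 2.18, and AT5G19750 alone of these 3 overlapped after normalization.

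The 28 members given no role had ratios of means from 1.56 to 3.71. AT4G22190 ran from 0.486 to 0.609 (median 0.529) in proline samples, against 0.124 to 0.170 (median 0.140) in water samples. AT5G26850 ran from 0.385 to 0.494 (median 0.471) in proline samples, against 0.0982 to 0.164 (median 0.117) in water samples. These were the highest ratios of the 28, at 3.71 and 3.62, and the lowest proline sample stood at 2.85 and 2.34 times the highest water sample. AT4G14380, AT5G56070, AT4G20300 and AT4G23080 followed with ratios of 3.10, 3.004, 2.97 and 2.91. AT2G32470 had the largest coefficient of variation after proline, 31.6%, against 12.1% in water. Its proline values ran from 0.143 to 0.322 (median 0.194), against 0.0904 to 0.122 (median 0.0982) in water samples. After normalization 25 of the 28 kept their groups apart, and AT5G41960, AT5G49120 and AT4G17440 did not.

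Further loci of these 28 had ratios of means from 2.02 to 2.59. AT4G24090 ran from 0.259 to 0.327 (median 0.2999) in proline samples, against 0.0815 to 0.156 (median 0.113) in water samples. In proline samples AT3G09050 ran from 0.532 to 0.696 (median 0.607), against 0.203 to 0.308 (median 0.2295) in water samples. AT4G03150 ran from 0.582 to 0.924 (median 0.884) in proline samples, against 0.266 to 0.393 (median 0.322) in water samples. Ratios of means were 2.59, 2.53 and 2.47 in this order, and AT4G24090 had a coefficient of variation of 7.64% after proline and 26.7% in water. In proline samples AT4G16410 ran from 0.852 to 1.19 (median 0.978), against 0.365 to 0.428 (median 0.411) in water samples. AT4G15790 ran from 0.503 to 0.622 (median 0.5495) in proline samples, against 0.171 to 0.291 (median 0.227) in water samples. In proline samples AT2G46630 ran from 0.8602 to 1.35 (median 1.25), against 0.439 to 0.591 (median 0.487) in water samples. Relative to their means, the values of AT4G16410 and AT2G46630 spread more after proline and those of AT4G15790 more in water, with ratios of means of 2.43, 2.304 and 2.37 in that order. AT5G27860 ran from 0.782 to 0.912 (median 0.877) in proline samples, against 0.246 to 0.495 (median 0.406) in water samples. In proline samples AT4G32340 ran from 0.761 to 0.944 (median 0.822), against 0.372 to 0.423 (median 0.388) in water samples. AT1G79480 ran from 0.355 to 0.488 (median 0.401) in proline samples, against 0.168 to 0.234 (median 0.197) in water samples. AT5G27860 was low in water replicate 3, where the proline value of the same number was 3.64 times as high, and AT4G32340 was tight in both groups. In proline samples AT5G48830 ran from 0.224 to 0.352 (median 0.255), against 0.0995 to 0.179 (median 0.134) in water samples. For AT5G48830 the lowest proline sample was 1.25 times the highest water sample.

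The remaining loci had ratios of means from 1.56 to 1.91. AT2G31920 ran from 0.633 to 0.795 (median 0.756) in proline samples, against 0.351 to 0.422 (median 0.384) in water samples. In proline samples AT4G07670 ran from 0.561 to 0.881 (median 0.653), against 0.307 to 0.406 (median 0.382) in water samples. AT5G38310 ran from 2.18 to 2.53 (median 2.33) in proline samples, against 1.13 to 1.45 (median 1.25) in water samples. All 3 stayed apart after normalization, and AT4G07670 had its lowest water value in replicate 6. In proline samples AT2G46300 ran from 0.958 to 1.26 (median 1.08), against 0.479 to 0.646 (median 0.616) in water samples. AT5G41960 ran from 0.6596 to 1.18 (median 0.991) in proline samples, against 0.428 to 0.639 (median 0.583) in water samples. In proline samples AT5G49120 ran from 0.487 to 0.654 (median 0.576), against 0.269 to 0.371 (median 0.337) in water samples. AT5G41960 had groups that nearly touched, with a lowest proline value 1.03 times the highest water value. AT4G22650 ran from 0.772 to 0.876 (median 0.851) in proline samples, against 0.473 to 0.535 (median 0.484) in water samples. In proline samples AT1G04330 ran from 0.202 to 0.248 (median 0.213), against 0.0991 to 0.173 (median 0.131) in water samples. AT4G17440 ran from 0.343 to 0.502 (median 0.414) in proline samples, against 0.224 to 0.282 (median 0.263) in water samples. AT4G22650 was the tightest of these 3, with coefficients of variation of 5.14% after proline and 4.81% in water. In proline samples AT2G35450 ran from 0.276 to 0.444 (median 0.352), against 0.202 to 0.236 (median 0.216) in water samples. AT4G02040 ran from 0.182 to 0.227 (median 0.208) in proline samples, against 0.119 to 0.151 (median 0.129) in water samples. The lowest proline values of AT2G35450 and AT4G02040 were 1.17 and 1.21 times the highest water values.

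How far the members differed depended on the scale. On the deposited scale the upper quartile of all 3439 features lay between 0.475 and 0.515 on the proline arrays, against 0.376 and 0.417 on the water arrays. The lower quartile lay between 0.0497 and 0.0619 on the proline arrays, against 0.0672 and 0.0776 on the water arrays. The arrays of the groups therefore differed in the spread of all their values, with no overlap at either quartile. Of 830 tested features with a mean level of 0.3 to below 1, 69.6% were higher after proline as deposited (median log2 difference 0.23), and 42.0% after quantile normalization (median -0.098). Of 1135 features with a mean level of 0.1 to below 0.3, 51.5% were higher as deposited and 43.8% after quantile normalization. The part of this array-wide spread in the members' difference was not tested.

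Quantile normalization, which gives every array the same distribution, lowered the ratio of all 59 members. Their median log2 difference was 1.002 as deposited and 0.74 after normalization, where the median of all tested features was 0.057 and -0.12. All 59 members were higher in proline samples as deposited, which the rule fixes, and also after normalization, with normalized ratios from 1.19 to 3.60. The normalized ratio was below 1.5 for 21 of them. The groups remained apart for 46 of 59 and overlapped for 13, beside 96 of 692 features with 1 gene that were apart on that scale (13.9%). A ratio below 1.5 together with overlapping groups was found for 10 members. The 30 members with a deposited ratio of 2 or more all kept their groups apart.

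**Figure D3:**
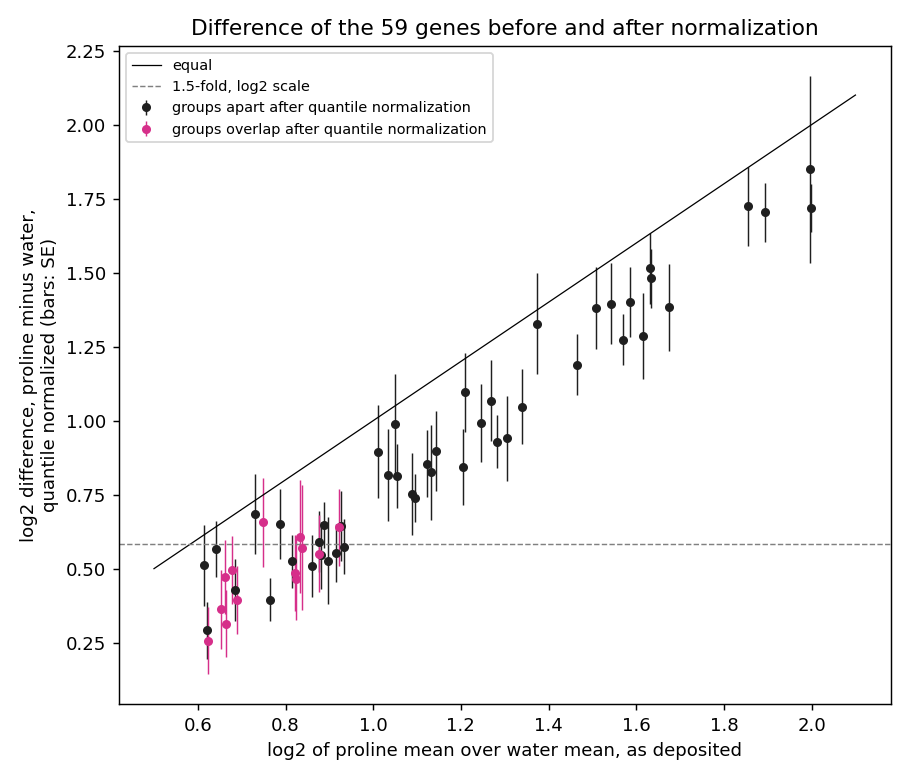
The log2 difference (proline minus water) after quantile normalization, with its standard error (bars), against log2 of the ratio of deposited means for each of the 59 genes. All points lie below the line of equal values, and the 13 genes whose groups overlap after normalization lie among the smaller ratios.

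By array, the median over the 59 genes of each value divided by the gene's own water mean was 1.92, 2.004, 2.05, 2.02, 2.03 and 1.95 in proline replicates 1 to 6. In water replicates 1 to 6 it was 1.02, 1.03, 0.955, 0.974, 1.01 and 1.05, values that the division by the water mean holds near 1. Single genes ran from 1.202 to 5.35 on the proline arrays and from 0.451 to 1.57 on the water arrays. The lowest water value of a gene fell most often in replicate 3 (17 of 59 genes) and the highest in replicate 6 (16 of 59), and in 476 other features with 1 gene the median deviation from the group mean was also lowest in water replicate 3 (-0.059 on the log2 scale) and highest in water replicate 6 (0.074).

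**Figure D4:**
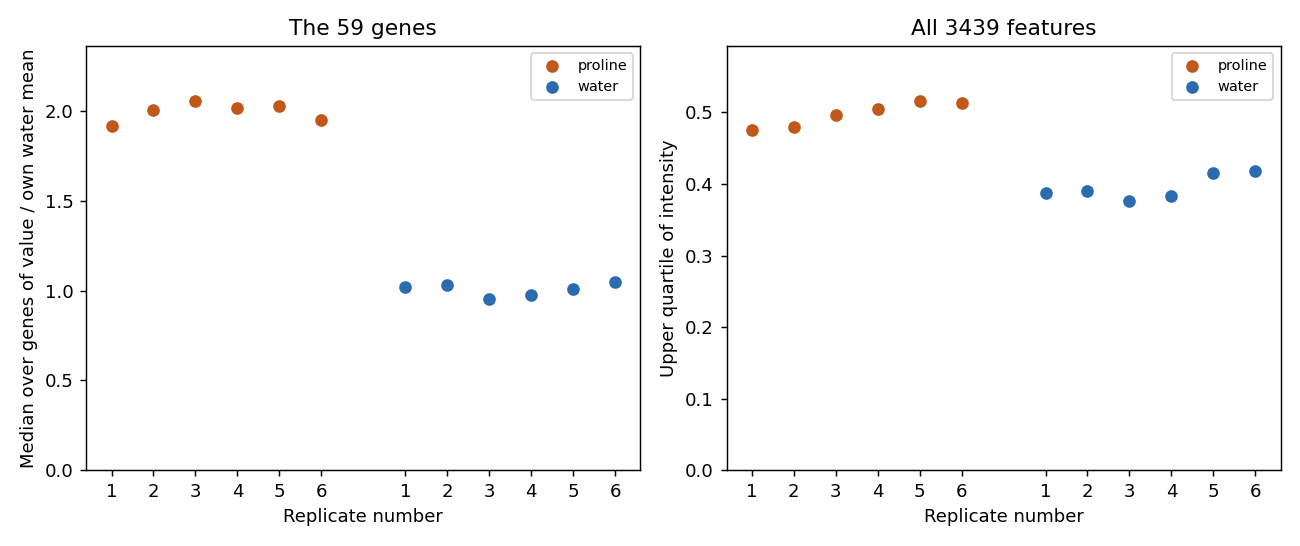
Left, the median over the 59 genes of each value divided by the gene's own water mean, by array. Right, the upper quartile of intensity over all 3439 features, by array. Proline arrays (1.92 to 2.05 at left, 0.475 to 0.515 at right) are drawn before water arrays (0.955 to 1.05 and 0.376 to 0.417).

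Much of the spread within a group lay between pairs of successive replicate numbers, namely 1 and 2, 3 and 4, and 5 and 6. The share of the within-group squares on the log2 scale that lay between the means of these pairs was taken for each gene. Its median over members was 72.6% after proline and 59.5% in water, where unrelated samples would give a mean of 40%. In 475 other features with 1 gene it was 67.3% after proline and 68.0% in water. AT2G46630 and AT4G03150 showed it most plainly. AT4G03150 was at 0.582 and 0.614 in proline replicates 3 and 4 (others 0.877 to 0.924), and at 0.269 and 0.266 in water replicates 3 and 4 (others 0.311 to 0.393). For 25 of the 59 members (42.4%) the same pair of numbers was lowest in both groups, against 42.9% of the other features. Unrelated samples would give 33.3%. The labels do not say whether the replicates came from separate plants.

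The coefficient of variation over the members had a median of 11.9% after proline and 12.5% in water, and it was larger after proline in 28 genes and larger in water in 31. In 378 other features with 1 gene and a water mean within the limits it was 20.3% after proline and 16.7% in water. The requirement that groups do not overlap favours genes with little spread, so the lower values of the members are set in part by the rule.

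The locus codes placed 7 members on chromosome 1, 10 on 2, 11 on 3, 19 on 4 and 12 on 5. Chromosome 4 thus held 32.2% of the members, beside 17.3% of all features with 1 gene, and chromosome 1 held 11.9%, beside 25%. No member had a neighbouring gene with a feature of its own. The nearest members in the TAIR10.1 gene order were AT2G31800 and AT2G31920, with 18 genes between them, and AT3G04500 and AT3G04650, with 19.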

How the data were processed

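The authors deposited 1 value per feature and array, a relative intensity on a linear scale that is never negative, has exact zeros and reaches 100 on every array. How background was subtracted and arrays were scaled is stated neither in the labels nor in the file. Samples were grouped by their titles. Features were named through the platform annotation only where it gives 1 gene (690 of 692 matched the TAIR10.1 gene table).

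The members, gene lists and alternatives were chosen with earlier results of these data known. Levels and ratios of means are of the deposited values, zeros included. Normalized differences come from limma 3.58.1 in R 4.3.3 (lmFit and eBayes, two-sided, adjusted p threshold 0.05) on log2 intensity, zeros missing, quantile normalized, for 2861 features with at least 4 values per group. The fit was tested on simulated data whose samples were independent within each group. That test does not cover samples that are alike within a replicate pair. The rule for named genes takes every member and the genes just outside each limit. Where samples may be technical repeats, p-values measure only the spread between these samples, and the number of arrays limits the precision.

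Same-numbered samples deviated together over 2674 features (correlations 0.403, 0.370, 0.255, 0.257, 0.283 and 0.184). Correlations between samples with different numbers were not computed, so these values do not show that the numbers pair the samples. The labels state no pairing, and the main fit used none. Alternatives were other scalings, treatments of zeros and filters, the replicate block, averaged replicate pairs and leaving out each sample. The H3.1 locus outside the members was added after the data were seen. Planned promoter motifs and classes by product text were not analysed here, as no sequence or product text was used.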

Additional observations from a re-analysis of the deposited data

Results flagged for a closer look

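Among 118 groups of 6 values, 3 had a highest or lowest sample whose gap to the others passed Dixon's critical value, where chance gives about 5.9. AT4G07670 was at 0.307 in water replicate 6 (others 0.374 to 0.406). AT2G46300 was at 0.479 in water replicate 5 (others 0.592 to 0.646). AT5G40070 was at 0.114 in water replicate 5 (others 0.146 to 0.162).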

How the results depend on the processing

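With the replicate number as a block, 1360 features were called instead of 1263 (580 higher and 780 lower after proline, against 523 and 740), and no member's difference changed, since the design is balanced. With replicates 1 and 2, 3 and 4, and 5 and 6 averaged, 643 were called. Leaving out each sample gave 1185 to 1219 calls. Of the calls, 41.4% were higher after proline, against 59.2% as deposited and 49.7% after cyclic loess. The limits were met by 59 genes, or by 36 with quantile-normalized values (34 of them members), 50 with arrays scaled to the same median (47 members), 60 with zeros left out and 57 by medians, and by 57 to 63 without any 1 sample. The members' median ratio of 2.02 was 1.67 with quantile-normalized values, 1.90 after median scaling, and 1.92 to 2.095 without any 1 sample. No alternative turned the direction of a member's log2 difference. The rule already fixes that direction on the deposited scale, so this says little about the members. As deposited, 38 of 59 moved by more than 1 SD of their replicates, after median scaling 5 and after cyclic loess 2. No measure of background accompanies the values, so the limit it sets on dim members is unknown.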
